A study of Mus musculus with 10 samples.

Results

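Transcripts of the aryl hydrocarbon receptor (AHR) pathway were measured in the left ventricle (LV) of young mice with a pressure-overloaded heart. The pathway was represented by 9 genes picked by name out of the 55401 genes in the deposited tables, and all 9 were listed in each library. Ahr, Arnt, Arnt2 and Ahrr code for the receptor, its partners and its repressor, whereas Cyp1a1, Cyp1b1, Tiparp, Nqo1 and Ugt1a6a are target genes. Of these, 6 had a mean of at least 1 FPKM, a read count corrected for transcript length and library depth, and were tested across the transcriptome. Arnt2, Ahrr and Ugt1a6a lay below that level.

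LV tissue of 4-week-old wild-type (WT) mice was sequenced after neonatal ascending aorta constriction (nAAC, n = 5) or sham surgery (n = 5), with 1 library per mouse. In nAAC the ascending aorta is narrowed surgically in newborns, so that the LV pumps against a raised pressure from birth on, and all pups stayed with their mothers. No library came from a mouse given an AHR ligand or lacking AHR, so the operation was the only treatment compared. The groups were not balanced in Xist, the transcript of the inactive X chromosome, as given below. The comparison bears on whether transcripts around AHR differ in the overloaded LV, a question raised by kynurenine, a tryptophan metabolite that binds the receptor.

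AHR is a ligand-activated transcription factor. It waits in the cytoplasm in a complex with HSP90 and cochaperones, and a bound ligand sends it to the nucleus, where it pairs with ARNT and binds DNA at the dioxin response element, whose core reads GCGTG. Its target genes code for enzymes that oxidize and conjugate foreign chemicals and for proteins that switch the receptor off again, such as the repressor AHRR and the ADP-ribosyltransferase TIPARP. Activation of AHR is therefore usually read from its targets, Cyp1a1 first among them, rather than from the mRNA of the receptor itself.

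The 250 bases before the transcription start were read for the genes to show where the core motif lies in those windows. RefSeq (GRCm38.p6) start sites were available for 8 of the 9 genes, all but Ahr, and GCGTG on either strand was present in 5 of the 8, against 28.2% of 32851 windows of the same length. The windows of 3 target genes and of Ahrr are shown 5′ to 3′ on the strand of the gene, with capitals marking GCGTG or its complement CACGC. They cover chr9:57697363-57697612 (+) for Cyp1a1, chr17:79715062-79715311 (−) for Cyp1b1, chr3:65528197-65528446 (+) for Tiparp and chr13:74292332-74292581 (−) for Ahrr.
Cyp1a1: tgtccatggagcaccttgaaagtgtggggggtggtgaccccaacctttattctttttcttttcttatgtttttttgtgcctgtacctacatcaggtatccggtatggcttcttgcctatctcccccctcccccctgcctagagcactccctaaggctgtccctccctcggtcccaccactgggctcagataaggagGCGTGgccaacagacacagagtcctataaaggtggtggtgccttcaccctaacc
Cyp1b1: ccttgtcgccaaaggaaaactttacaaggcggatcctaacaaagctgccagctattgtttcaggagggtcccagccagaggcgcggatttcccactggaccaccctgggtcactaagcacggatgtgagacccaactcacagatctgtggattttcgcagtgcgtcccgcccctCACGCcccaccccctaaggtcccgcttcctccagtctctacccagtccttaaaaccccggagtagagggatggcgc
Tiparp: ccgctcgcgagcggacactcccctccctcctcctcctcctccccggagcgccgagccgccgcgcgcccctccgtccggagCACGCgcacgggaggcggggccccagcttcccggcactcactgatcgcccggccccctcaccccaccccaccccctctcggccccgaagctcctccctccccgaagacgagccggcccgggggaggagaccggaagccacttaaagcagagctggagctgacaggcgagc
Ahrr: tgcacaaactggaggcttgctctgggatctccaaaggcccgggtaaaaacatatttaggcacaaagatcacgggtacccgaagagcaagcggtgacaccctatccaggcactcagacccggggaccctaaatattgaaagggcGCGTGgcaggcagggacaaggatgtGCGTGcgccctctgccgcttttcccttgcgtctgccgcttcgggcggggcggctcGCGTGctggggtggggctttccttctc
For Cyp1a1 the RefSeq start lies inside the gene span of the deposited tables. The motif began 54 bases before the start of Cyp1a1, 76 bases before that of Cyp1b1 and 170 bases before that of Tiparp, on the reverse strand in the latter pair. Ahrr held it at 107, 82 and 27 bases before its start, and Arnt held it at 29 bases. The windows of Arnt2, Nqo1 and Ugt1a6a did not hold these letters. The longer form TNGCGTG occurred in 1 of the 8 windows, that of Ahrr, and in 4.1% of all windows. The core of the antioxidant response element, TGACNNNGC, which the oxidative stress factor NRF2 uses, occurred in 1 of the 8, that of Arnt (127 and 50 bases before the start), and in 10.2% of all windows. A match is a stretch of letters and does not show that a factor binds there.

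The libraries held an estimated 4.86 to 6.82 gigabases of aligned sequence in nAAC and 5.06 to 5.24 in sham, and between 11182 and 12455 genes above 1 FPKM. With the deposited values, 3211 of the 11867 tested genes were called higher in nAAC (27.1%) and 546 lower (4.60%), at an adjusted p below 0.05 by limma on log2(FPKM + 1). The median log2 fold change (FC) of all tested genes was 0.22, so a member is also given relative to that shift. Scaling the libraries by the median ratio of their genes removed the shift, and 1563 of 2994 called genes were then higher (13.2% of those tested). The cardiomyocyte markers Myh6, Tnnt2, Tnni3, Actc1, Ryr2 and Pln summed to between 10579 and 19555 FPKM in every library. Replicate 4 of both groups stood apart in Cyp1a1, and sham replicate 4 had the lowest weight (0.212) when limma weighted the libraries, so values that rest on them are given with and without them. Xist, the transcript of the inactive X chromosome, was above 1 FPKM in 4 nAAC libraries (14.8 to 17.9) and in 2 sham libraries (3.70 in replicate 4 and 10.6 in replicate 5), so its level was not balanced between the groups. The Xist level of sham replicate 4 lay between the low and the high libraries. Its share of mitochondrial transcripts (33.7% of TPM) was below that of sham replicates 1 to 3 (46.5% to 49.8%). Sham replicate 5 was at 38.3%, and the nAAC libraries lay between 32.8% and 39.9%. Whether the material of sham replicate 4 was mixed was not tested.

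Ahr itself (ENSMUSG00000019256, chr12:35497974-35535038, minus strand) was expressed at a low level that did not differ detectably between the groups. Its FPKM was 1.78, 1.37, 1.36, 2.61 and 2.08 in nAAC replicates 1 to 5 and 1.23, 1.63, 1.80, 1.26 and 1.88 in sham replicates 1 to 5. The groups overlapped widely, and the lowest and the highest nAAC library lay on either side of most sham libraries. The means were 1.84 ± 0.525 in nAAC and 1.56 ± 0.303 in sham (SD, n = 5 each). The log2 FC was 0.14 (SE 0.14, 95% CI −0.16 to 0.44, limma adjusted p = 0.461), which lay 0.09 below the median of all genes. Without both replicate 4 libraries the log2 FC was 0.0039 (limma adjusted p = 0.985). With all libraries it turned to −0.039 after median-ratio scaling. The interval leaves room for a rise of up to 0.44 on the log2 scale, so no difference is shown and equality is not shown either.

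Arnt, the obligate nuclear partner of AHR and also of the hypoxia factors, was the most abundant gene of the receptor group (ENSMUSG00000015522, chr3:95434388-95497240, plus strand). Its FPKM was 11.8, 9.59, 9.52, 13.3 and 12.5 in nAAC and 8.83, 8.83, 9.55, 6.65 and 11.1 in sham. Replicate 4 was the highest library in nAAC and the lowest in sham, and the groups overlapped between 9.52 and 11.1 FPKM. Its log2 FC was 0.31 (SE 0.14, limma adjusted p = 0.111), or 0.09 above the median of all genes. Without both replicate 4 libraries the log2 FC was 0.16 (limma adjusted p = 0.348), below the median of all genes in that run (0.20). Arnt passed the test with TPM in place of FPKM (log2 FC 0.48, adjusted p = 0.0356 by limma) and with library weights (0.29, adjusted p = 0.0404), and in no other alternative run.

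Arnt2, the close relative of Arnt best known from neurons (ENSMUSG00000015709, chr7:84246278-84410176, minus strand), was the only gene of the 9 whose groups did not overlap, but at a very low level. It read 0.208, 0.184, 0.096, 0.078 and 0.128 FPKM in nAAC and 0.043, 0.048, 0.058, 0.014 and 0.041 FPKM in sham. Each nAAC library was above each sham library, with a ratio of means of 3.42 (two-sided exact permutation test, p = 0.0079, the smallest that 5 against 5 libraries allow). Groups that separate in this direction were found for 4.48% of the 17442 genes with a mean between 0 and 1 FPKM. With no filter on low values, limma called Arnt2 (adjusted p = 0.023). The groups overlapped once the libraries were scaled by the median ratio. An antisense gene, Gm30873, lies within Arnt2 and averaged 1.52 FPKM, and whether the authors counted by strand was not given in the sources used here, so reads of the pair cannot be told apart.

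Ahrr, the repressor that competes with AHR for ARNT and is itself induced by AHR (ENSMUSG00000021575, chr13:74211118-74292331, minus strand), read 0.405, 0.628, 0.665, 0.735 and 0.584 FPKM in nAAC. In sham it read 0.381, 0.403, 0.468, 0.276 and 0.797 FPKM. Sham replicate 5 held the highest value of all 10 libraries and the groups overlapped. The ratio of means was 1.30 (exact permutation p = 0.198). Without sham replicate 5 the exact permutation p was 0.0317, and without both replicate 4 libraries it was 0.543. The receptor group thus had 0 of 2 tested genes called, where 27.1% of all tested genes were called higher and 4.60% lower.

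**Figure D1:**
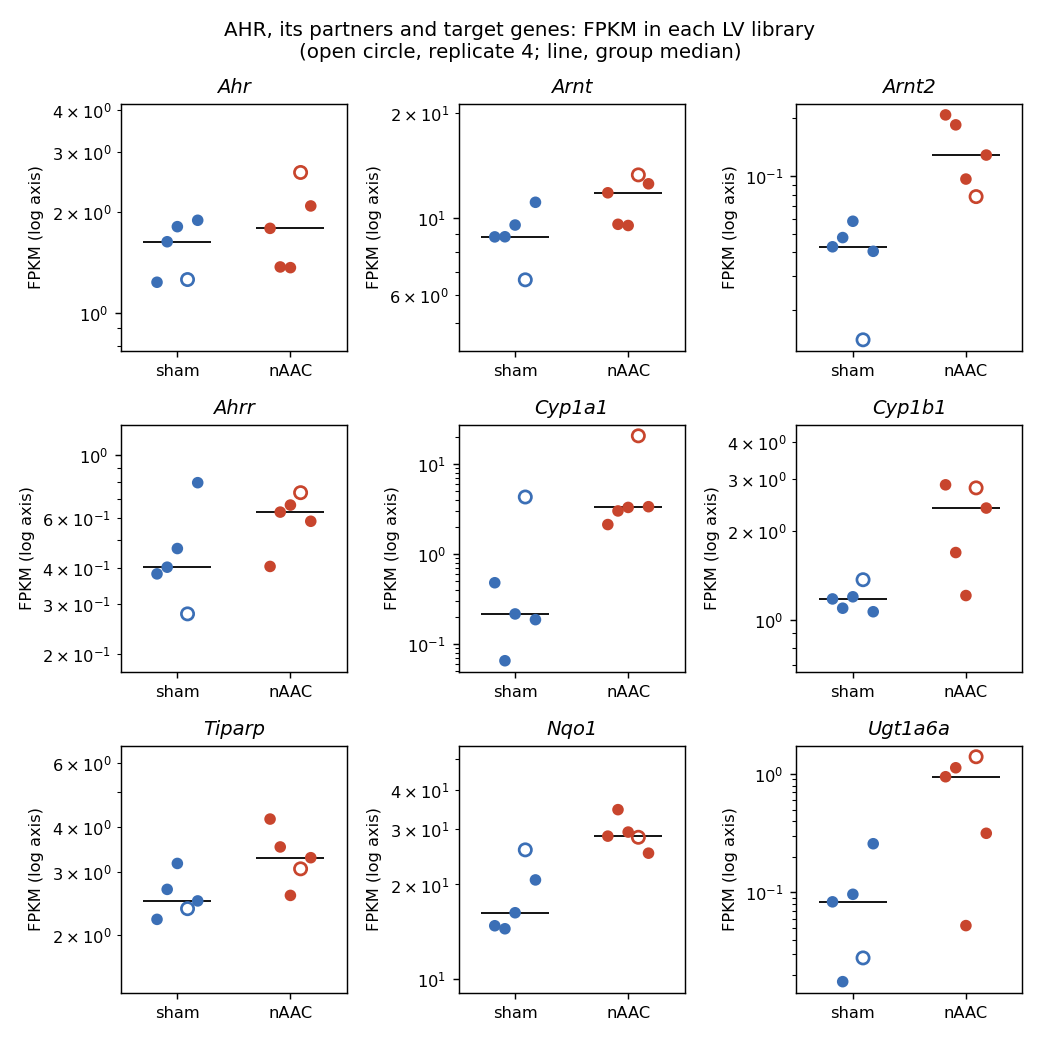
FPKM of the 9 genes on a log axis, 1 point per LV library, with nAAC in red, sham in blue, a line at each group's median and an open circle for replicate 4. Only the Arnt2 groups do not overlap, and the open circles of Cyp1a1 (20.4 in nAAC, 4.28 in sham) are the highest point of each group.

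The target genes were examined in the same way. Of the 4 that could be tested, 3 rose in nAAC by limma (Cyp1a1, Cyp1b1 and Nqo1), against 27.1% of all tested genes, and the median log2 FC of the 4 was 0.59 against 0.22 for all tested genes. Only Cyp1a1 also passed a log2 FC of 1, which 5.01% of tested genes did in that direction. The mean of each of the 9 genes was higher in nAAC than in sham, but the median tested gene was higher as well (log2 FC 0.22). After median-ratio scaling the log2 FC was −0.039 for Ahr, 0.054 for Arnt and 0.058 for Tiparp. In 0 of the 6 tested genes were the groups fully separate, where 18.9% of all tested genes were separate with nAAC higher. The number of target genes called was 3 without both replicate 4 libraries, 1 after median-ratio scaling (Cyp1a1) and 0 with Xist as a covariate. Of the 11867 tested genes, 3670, 2994 and 1983 were called in these runs.

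Cyp1a1, the cytochrome P450 that is the classical sentinel of AHR activity, had the largest log2 FC of the 6 tested genes (ENSMUSG00000032315, chr9:57687928-57703824, plus strand). The FPKM of the nAAC libraries was 2.12, 3.0, 3.28, 20.4 and 3.34 in replicates 1 to 5. That of the sham libraries was 0.480, 0.0656, 0.216, 4.28 and 0.187. Most nAAC libraries lay between 2.12 and 3.34 and most sham libraries at or below 0.480, and replicate 4 was far above the rest in each group, by 6.10-fold over the next nAAC library and by 8.92-fold over the next sham library. Sham replicate 4 thus exceeded 4 of the 5 nAAC libraries, and the groups overlapped through this library alone.

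The means of Cyp1a1 were 6.43 ± 7.83 in nAAC and 1.05 ± 1.82 in sham (SD, n = 5 each), and the medians were 3.28 and 0.216, a ratio of 15.2. The log2 FC was 1.74 (SE 0.52, 95% CI 0.61 to 2.87, limma adjusted p = 0.0229), or 1.51 above the median of all genes. This was rank 134 of 11867 tested genes by log2 FC. Exact two-sided permutation of the log2 values gave p = 0.0397, and exact permutation of the ranks gave p = 0.0952. With both replicate 4 libraries left out, Cyp1a1 was 2.94 ± 0.565 in nAAC and 0.237 ± 0.174 in sham (SD, n = 4 each) with no overlap, a ratio of 12.4. The log2 FC was then 1.67 (limma adjusted p = 2.31e-05), and the exact permutation p was 0.0286, the smallest that 4 against 4 libraries allow. Replicate 4 was left out because its high Cyp1a1 was known beforehand. These p values therefore describe the other libraries and are not an independent test.

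The call on Cyp1a1 was lost without sham replicate 1, 2 or 3 (limma adjusted p = 0.0506, 0.0525 and 0.0526), when genes of low level were kept in the test (0.0901) and with Xist as a covariate (log2 FC 1.39, adjusted p = 0.162). Among libraries with Xist above 1 FPKM, Cyp1a1 was 2.12 to 20.4 FPKM in 4 nAAC libraries and 4.28 and 0.187 in 2 sham libraries. Among those with Xist at or below 1 FPKM, Cyp1a1 was 3.0 in nAAC replicate 2 and 0.0656 to 0.480 in sham replicates 1 to 3. Because 4 of 5 nAAC libraries but 2 of 5 sham libraries had Xist above 1 FPKM, Xist level and operation can be told apart only in part.

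**Figure D2:**
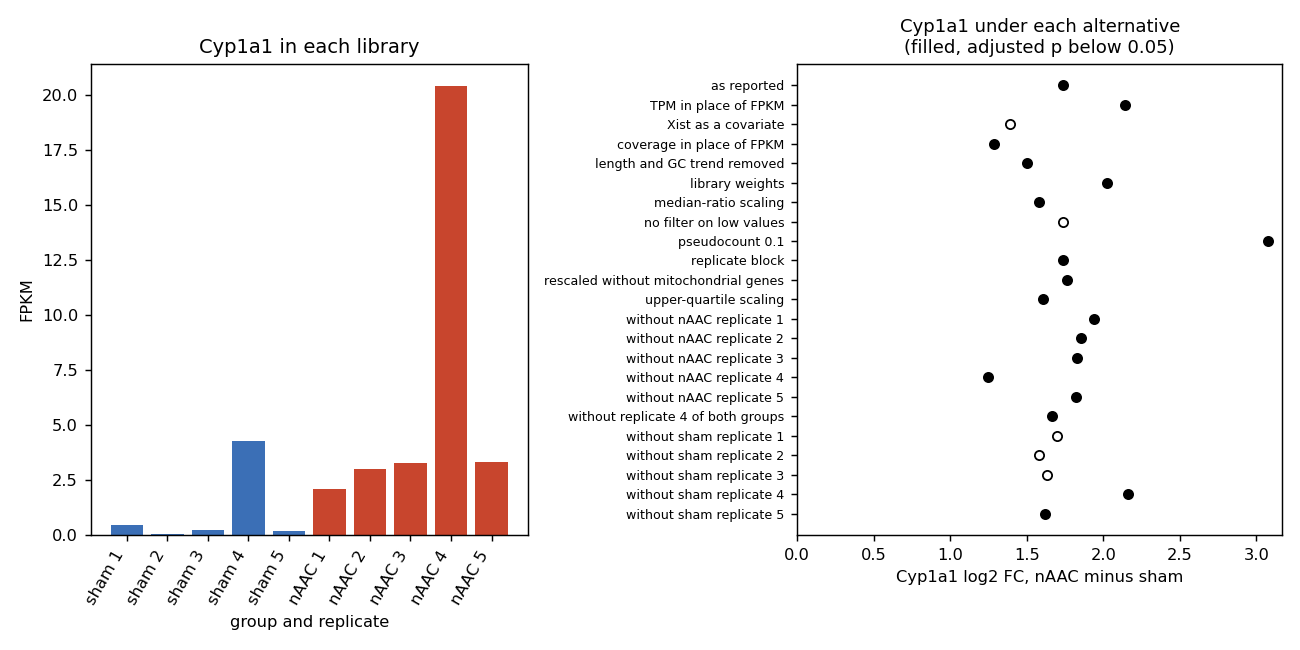
Left, Cyp1a1 FPKM in each of the 10 LV libraries (bars from 0, sham in blue, nAAC in red), and right, its log2 FC as reported and under each alternative, filled where the adjusted p is below 0.05. Replicate 4 holds the tallest bar of each group (20.4 and 4.28), and the log2 FC stays above 0 throughout, between 1.25 and 3.08, with 5 open points.

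Sums of cell type markers were also looked at in replicate 4. The summed FPKM of 8 endothelial markers ranged from 373 to 784 in nAAC and from 471 to 779 in sham, and replicate 4 had the highest sum in both groups. In sham replicate 4 that sum was mostly Fabp4 (636 of 779 FPKM). Pecam1 (37.2), Cdh5 (32.1), Kdr (11.3) and Tek (12.1, next library 12.3) were lowest of the sham libraries there. Tie1 (27.5), Emcn (16.6) and Vwf (5.70) were not the lowest in that library. In nAAC replicate 4 Pecam1 (75.4), Cdh5 (69.8), Kdr (38.3) and Tek (18.9) were the highest of the nAAC libraries, so the endothelial list as a whole did not move with Cyp1a1 in both. The 6 macrophage markers had their highest sum in replicate 4 of each group, within 48.4 to 97.5 FPKM in nAAC and 26.3 to 56.6 in sham, of which C1qa made up 32.3 FPKM in sham replicate 4, where Mrc1 was 4th of 5. Lung epithelium, where Cyp1a1 is readily induced, was close to absent, with a summed level of 6 markers of at most 0.311 FPKM in any library and the defining marker Sftpc at no more than 0.0579. Liver markers, of which Alb is the most abundant in that organ, summed to at most 2.14 FPKM and Alb read at most 0.396. The part of endothelial and macrophage RNA in the high Cyp1a1 values was not tested. In bulk tissue, more cells of a type and more RNA per cell cannot be told apart.

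Cyp1b1, a related P450 that oxidizes hormones and polycyclic hydrocarbons and is typical of stromal cells, also rose (ENSMUSG00000024087, chr17:79701537-79715061, minus strand). It read 2.86, 1.69, 1.21, 2.79 and 2.39 FPKM in nAAC and 1.18, 1.09, 1.20, 1.37 and 1.06 in sham. The sham libraries lay close together (1.18 ± 0.118, SD, n = 5) and the nAAC libraries were spread (2.19 ± 0.72, n = 5), with nAAC replicate 3 inside the sham range. In log2 FC this came to 0.52 (SE 0.15, limma adjusted p = 0.0198), or 0.29 above the median of all genes. It was 0.34 after median-ratio scaling, where it was no longer called (limma adjusted p = 0.104). The call was also lost with upper-quartile scaling (0.108), with length and GC trends removed (0.0883) and with Xist as a covariate (0.137). It was lost too when genes of low level were kept (0.0577) and without nAAC replicate 4 (0.0545), though not without replicate 4 of both groups (0.0474).

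Fibroblast markers were examined beside Cyp1b1. Of 6 markers, 4 rose and 0 fell in nAAC by limma (Tcf21, Dcn, Lum and Col1a1), where 27.1% of all tested genes rose. After median-ratio scaling 2 were called higher, Tcf21 and Col1a1, as were 13.2% of all tested genes. Dcn and Lum were not called (limma adjusted p = 0.430 and 0.263). The summed FPKM of the 6, mostly that of Dcn, was 418 to 683 in nAAC against 365 to 384 in sham. After the group means were removed, Dcn, which codes for the matrix proteoglycan decorin, was the tested gene whose values over the 10 libraries were most like those of Cyp1b1 (Pearson r = 0.94, Spearman rho = 0.85). Dcn averaged 421 FPKM in nAAC and 296 in sham. The part of fibroblast content in the Cyp1b1 difference was not tested.

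Tiparp, which ADP-ribosylates AHR and limits its activity, did not pass the test (ENSMUSG00000034640, chr3:65528410-65555518, plus strand). It read 4.20, 3.51, 2.58, 3.06 and 3.28 FPKM in nAAC and 2.21, 2.68, 3.16, 2.37 and 2.49 in sham. The groups overlapped between 2.58 and 3.16 FPKM. Its log2 FC was 0.27 (SE 0.12, 95% CI 0.0063 to 0.53, limma adjusted p = 0.107), which lay 0.04 above the median of all genes. An exact permutation test of this gene alone gave p = 0.048. With TPM in place of FPKM it was called (log2 FC 0.43, limma adjusted p = 0.0213). A transcribed pseudogene on the other strand, 4931440P22Rik, overlaps its start and averaged 0.31 FPKM.

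Nqo1, a quinone reductase under the control of both AHR and NRF2, was the most abundant of the 9 genes in either group (ENSMUSG00000003849, chr8:107388225-107403206, minus strand). Its FPKM was 28.5, 34.6, 29.4, 28.3 and 25.2 in nAAC and 14.8, 14.5, 16.3, 25.8 and 20.7 in sham. Sham replicate 4, at 25.8, was the single sham library that reached the nAAC range. The means were 29.2 ± 3.43 and 18.4 ± 4.82 (SD, n = 5 each), a ratio of 1.59. The log2 FC was 0.66 (SE 0.16, 95% CI 0.32 to 1.01, limma adjusted p = 0.00747), or 0.44 above the median of all genes. The adjusted p was 0.0608 after median-ratio scaling (log2 FC 0.40) and 0.0612 with Xist as a covariate (0.60), so the call was lost in both. Without both replicate 4 libraries the log2 FC of Nqo1 was 0.80 (limma adjusted p = 0.00218).

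Ugt1a6a, a UDP-glucuronosyltransferase that conjugates phenols, was low and varied by more than an order of magnitude (ENSMUSG00000054545, chr1:88134809-88218997, plus strand). It read 0.949, 1.13, 0.052, 1.40 and 0.316 FPKM in nAAC and 0.083, 0.018, 0.096, 0.028 and 0.258 in sham. Only nAAC replicate 3 lay within the sham range, and the ratio of means was 7.96 (exact permutation p = 0.032). The p was 0.0635 when any of nAAC replicates 1, 2, 4 or 5 or sham replicates 2 or 4 was left out, and the exact permutation p was 0.114 without both replicate 4 libraries. The Ugt1a genes share their last exons and differ in the first, so reads may be split among them. The overlapping Ugt1a7c averaged 0.621 FPKM and Ugt1a6b 0.0819 FPKM. The value of Ugt1a6a alone is therefore uncertain.

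**Figure D3:**
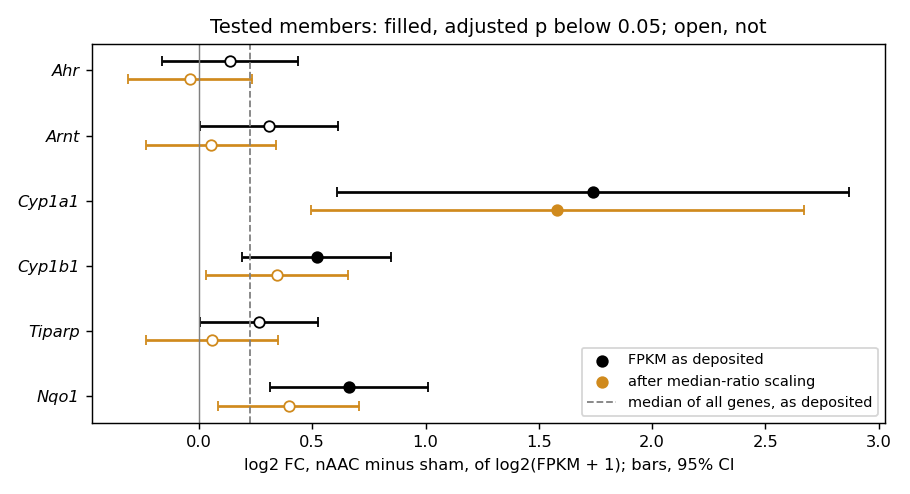
Log2 FC (nAAC minus sham) of log2(FPKM + 1) for the 6 tested genes with 95% CI, as deposited (black) and after median-ratio scaling (orange), filled where the adjusted p is below 0.05, with a dashed line at the median of all genes (0.22). Cyp1a1 (1.74 and 1.58) is filled on both scales, Cyp1b1 and Nqo1 only as deposited, and Ahr lies on either side of 0.

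Nqo1 had the highest and Arnt2 the lowest level in both groups. FPKM is corrected for transcript length, so levels were compared between genes, though the size of the gaps depends on the measure. In nAAC replicate 1, coverage scaled to depth equalled the FPKM of Nqo1 (28.5). It was lower than FPKM for Arnt (5.38 against 11.8) and Arnt2 (0.0162 against 0.208). In sham LV the mean FPKM ran from Nqo1 (18.4) over Arnt (8.99), Tiparp (2.58), Ahr (1.56), Cyp1b1 (1.18), Cyp1a1 (1.05), Ahrr (0.465) and Ugt1a6a (0.0966) to Arnt2 (0.0407). The library ranges of the neighbours Ahr, Cyp1b1, Cyp1a1 and Ahrr overlapped in turn, as did those of Ugt1a6a and Arnt2, and the other neighbours did not overlap. In nAAC the means ran from Nqo1 (29.2) over Arnt (11.3), Cyp1a1 (6.43), Tiparp (3.33), Cyp1b1 (2.19), Ahr (1.84), Ugt1a6a (0.769) and Ahrr (0.604) to Arnt2 (0.139), and only Nqo1 and Arnt2 were clear of their neighbours. The place of Cyp1a1 in both orders rested on replicate 4. Without it the mean of Cyp1a1 was 2.94 in nAAC, below that of Tiparp, and 0.237 in sham, below that of Ahrr. Cyp1a1 overlapped with Arnt in nAAC (20.4) and with Cyp1b1 in sham (4.28) through replicate 4 alone. Among the tested genes the sham mean of Ahr ranked at percentile 13.6 and that of Nqo1 at percentile 82.8.

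The libraries in which the genes were highest were not the same. The library of nAAC replicate 4 held the highest value of 4 genes (Ahr, Arnt, Cyp1a1 and Ugt1a6a), nAAC replicate 1 that of 3 (Arnt2, Cyp1b1 and Tiparp), nAAC replicate 2 that of Nqo1 and sham replicate 5 that of Ahrr. Within sham, replicate 4 was highest for Cyp1a1, Cyp1b1 and Nqo1 and lowest for Arnt, Arnt2 and Ahrr. The replicate 4 libraries of the 2 groups therefore shared a high Cyp1a1 but not a high Ahr or Arnt.

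The cytoplasmic complex that holds AHR was examined next. Of 8 tested chaperone and transport genes, 3 rose and 0 fell in nAAC by limma, where 27.1% of all tested genes rose, with a median log2 FC of 0.36 against 0.22 for all tested genes. Hsp90aa1, the inducible HSP90 isoform that keeps AHR ready to bind ligand, was 53.9 ± 6.39 FPKM in nAAC and 18.9 ± 3.97 in sham (SD, n = 5 each), and the groups did not overlap. Its log2 FC was 1.47 (SE 0.15, limma adjusted p = 9.88e-06). The more abundant isoform Hsp90ab1, named after its values were seen, averaged 334 FPKM in nAAC and 264 in sham. It was not called (log2 FC 0.35, limma adjusted p = 0.0828). Src, the kinase carried in the complex, had a log2 FC of 0.62 (limma adjusted p = 0.00472) and the nuclear exporter Xpo1 one of 0.38 (0.0406). With libraries scaled by the median ratio, 2 of the 8 genes were called higher, beside 13.2% of all tested genes. With Xist as a covariate 1 was called, where 1983 of 11867 tested genes were.

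Other factors of the bHLH-PAS family, which share the dimerization domain of AHR and ARNT, were mostly too low to test. Of 12 listed genes 3 were tested and 0 were called, where 27.1% of all tested genes were called higher and 4.60% lower. With 3 genes tested, a count of 0 says little about the family. Hif1a had a log2 FC of 0.12, Epas1 of 0.21 and Clock of 0.12 (limma adjusted p = 0.511, 0.350 and 0.575). Among 11 tested nuclear coregulators, 3 rose (27.1% of all tested genes did) and 0 fell, including the chromatin remodeller Smarca4 (log2 FC 0.48, limma adjusted p = 0.00504) and the mediator subunit Med1 (0.32, 0.0335). The median of the coregulators was 0.12, below the 0.22 of all tested genes. After median-ratio scaling 0 were called, where 2994 of 11867 tested genes were.

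Further genes of the AHR battery were mostly too low to test. Of 14 listed, 5 were tested and 2 rose with a log2 FC above 1, which 5.01% of all tested genes did. The median was 0.29, and 1 was called higher after median-ratio scaling, as were 13.2% of all tested genes. Slc7a5, the amino acid transporter that also carries kynurenine, was 3.41 ± 0.412 FPKM in nAAC and 0.965 ± 0.331 in sham (SD, n = 5 each). Its log2 FC was 1.18 (SE 0.13, limma adjusted p = 2.42e-05). Nfe2l2, which codes for NRF2, had a log2 FC of 0.24 (limma adjusted p = 0.108). Cyp1a2, the liver P450 that lies next to Cyp1a1, was listed at 0 in all 10 libraries, and it was named after its values were seen.

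NRF2 target genes share with Nqo1 a role in the defence against oxidants and electrophiles. Of 16 tested, 11 rose and 0 fell by limma, beside 27.1% and 4.60% of all tested genes, with a median log2 FC of 0.50. A log2 FC of 1 was passed by 2 of them and by 5.01% of all tested genes. Srxn1, which repairs oxidized peroxiredoxins, was 8.05 ± 0.704 FPKM in nAAC and 3.41 ± 0.537 in sham (SD, n = 5 each), with a log2 FC of 1.04 (SE 0.11, limma adjusted p = 1.80e-05). Ephx1, an epoxide hydrolase, had a log2 FC of 1.08 (limma adjusted p = 2.33e-04), and Txnrd1, thioredoxin reductase, one of 0.72 (1.86e-04). After median-ratio scaling 6 were called higher (13.2% of all tested genes were) and 1, Me1, was called lower. On that scale 2994 of 11867 tested genes were called in either direction. With Xist as a covariate 3 of the 16 were called, beside 1983 of 11867 tested genes.

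Kynurenine uptake and metabolism gave a mixed picture. Of 14 listed genes 4 were tested, of which 2 rose and 1 fell, beside 27.1% and 4.60% of all tested genes, with a median log2 FC of 0.19. After median-ratio scaling 2 were called higher and 2 lower, beside 13.2% of all tested genes higher and 2994 of 11867 in either direction. Those called lower were Kyat3 and Kyat1 (log2 FC of Kyat1 −0.62, limma adjusted p = 0.00181). Slc3a2, the heavy chain that carries Slc7a5 to the membrane, rose from 10.2 ± 3.78 to 17.0 ± 1.91 FPKM (SD, n = 5 each; log2 FC 0.75, limma adjusted p = 0.0121). Kyat3, a kynurenine aminotransferase that turns kynurenine into kynurenic acid, fell by 0.64 on the log2 scale, from 7.71 ± 1.35 to 4.54 ± 0.512 FPKM (limma adjusted p = 0.00182). Of the genes whose enzymes form kynurenine, Ido1 and Tdo2 were hardly detected. Their mean FPKM was 0.143 in nAAC and 0.0571 in sham for Ido1 and 0.0309 and 0.0363 for Tdo2. Afmid, named after its values were seen, read higher than both, with means of 0.809 in nAAC and 1.11 in sham, and was not tested. Slc7a5 and Ido1 belong to both this list and the AHR battery list. Without both replicate 4 libraries the genes called were 3 of the cytoplasmic complex, 2 coregulators, 2 further battery genes, 11 NRF2 target genes and 3 of kynurenine uptake and metabolism. In that run 3670 of the 11867 tested genes were called.

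**Figure D4:**
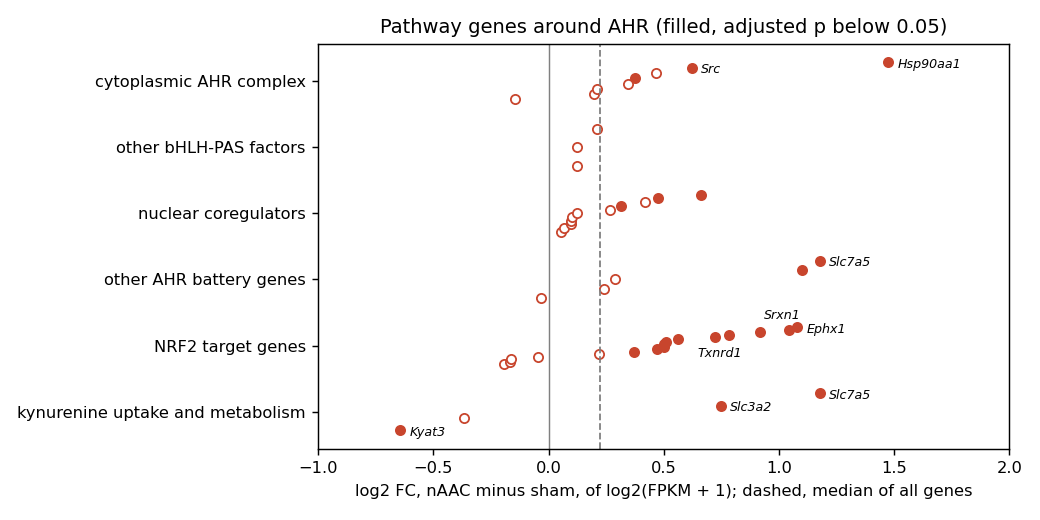
Log2 FC (nAAC minus sham) of the tested genes of 6 lists around AHR, 1 point per gene, filled where the limma adjusted p is below 0.05, with a dashed line at the median of all tested genes (0.22). NRF2 target genes hold 11 filled points of 16, Hsp90aa1 has the highest value (1.47), and Kyat3 is the filled point below 0.

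The remaining markers described the tissue. By limma, 1 of 6 cardiomyocyte markers rose and 2 fell, 2 of 8 endothelial, 4 of 6 smooth muscle and pericyte and 1 of 6 macrophage markers rose, and 0 markers of the latter 3 cell types fell, beside 27.1% of all tested genes higher and 4.60% lower. After median-ratio scaling 0 cardiomyocyte markers were called higher and 3 lower, 1 endothelial marker each way, 2 smooth muscle and pericyte markers higher, and 1 macrophage marker each way. On that scale 13.2% of all tested genes were called higher and 2994 of 11867 in either direction. Of 4 tested atrial markers 1 rose, Nppa, the natriuretic peptide gene that the loaded ventricle also expresses. The fat marker Cidea rose as deposited but was not called after median-ratio scaling (limma adjusted p = 0.055), while Ucp1 read at most 0.041 and Adipoq at most 0.308 FPKM. None of the lung, liver, thymus and epidermis markers reached 1 FPKM on average, and 0 of 4 erythroid markers were called. Thymus and T cell markers summed to at most 0.336 FPKM and epidermis markers to at most 1.69 FPKM in any library.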

How the data were processed

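Total RNA of LV tissue was sequenced in 5 nAAC and 5 sham mice, grouped by the labels. For each mouse the authors deposited a gene table of FPKM, TPM and coverage. The deposited FPKM is normalized by the authors for transcript length and depth, the deposited TPM is rescaled to a fixed sum per library, and the deposited coverage is a mean read depth per base. The mm10 build is named in the submitters' processing notes. The aligner, counter and use of strand were not given in the sources used here. Start and end of 54816 of 55141 shared genes equalled GENCODE M21 (99.4%).

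Rows sharing a gene ID were summed (7 to 12 extra rows per table). Read counts could not be recovered, so no count model was used. The commonest FPKM-to-coverage ratio of a library, which a minority of genes share, served to estimate its depth. limma 3.58.1 (R 4.3.3) was fitted to log2(FPKM + 1) with an empirical Bayes trend over the 11867 genes whose mean FPKM reached 1, Benjamini-Hochberg adjusted, two-sided, without covariates. A log2 FC is on this scale, which understates changes of low genes. Genes below the minimum were compared by two-sided exact permutation of log2(FPKM + 1). The model was checked on simulated data. Python 3.11.15, pandas 2.3.3, scipy 1.17.1 and matplotlib 3.10.9 were used.

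The members and gene lists were chosen with earlier results of these data known, so no test was run over a list. Named genes were the 9 members, for each pathway list the called genes with an absolute log2 FC above 1 and otherwise the 3 with the smallest adjusted p, the 3 tested genes most like each member, and markers whose list moves with a member. The alternatives tried were scaling by the median ratio or the upper quartile, FPKM rescaled without mitochondrial genes, TPM, a pseudocount of 0.1, no filter, the replicate block, library weights, Xist as a covariate, removal of length and GC trends by loess, and leaving out each library or both replicate 4 libraries. Coverage in place of FPKM was chosen after seeing the data. Some genes that enter the list counts are not reported here by name.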

Additional observations from a re-analysis of the deposited data

Results flagged for a closer look

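Within each group of 5 libraries, a library was singled out when its gap to the nearest other library, divided by the range of the group, exceeded 0.71. Gaps were taken on log2(FPKM + 1), averaged over the markers for a list. This rule was applied to 42 groups, 18 of them of the 9 genes, and 5 such gaps were found. Chance would give about 2.1 if the groups were independent and normally distributed. The groups share libraries and the high Cyp1a1 libraries were known beforehand, so that number is a rough guide and not a test. Cyp1a1 gave 2 of the 5 gaps, with the highest nAAC library (replicate 4, 20.4 FPKM, gap 0.828 of the range) and the highest sham library (replicate 4, 4.28 FPKM, gap 0.795 of the range). The averaged log2 level of the smooth muscle and pericyte markers was lowest in sham replicate 4 (gap 0.738). That of the lung epithelium markers, which summed to at most 0.187 FPKM in sham, was highest in sham replicate 4 (gap 0.81). The averaged log2 level of the erythroid markers was highest in nAAC replicate 3 (gap 0.728). The Cyp1a1 values of both replicate 4 libraries stood beside the highest summed macrophage and lung epithelium markers of each group. The summed endothelial markers were also highest there, but in sham replicate 4 through Fabp4. Pecam1, Cdh5, Kdr and Tek were lowest of the sham libraries in it, and Tie1, Emcn and Vwf were not. The cause was not tested.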

How the results depend on the processing

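Cyp1a1 kept its direction in all 24 alternatives, and its call in 18, which include runs chosen with its high replicate 4 values known. Its log2 FC was 1.39 with Xist as a covariate (limma adjusted p = 0.162) and 1.74 without a filter on low values (0.0901) and by an exact permutation of ranks (p = 0.0952), and ranged from 1.25 to 2.16 when single libraries were left out. The 3757 genes called became 1983 with Xist and 6451 with library weights, and 2899 to 4551 without single libraries. Receptor genes called, counted over Ahr and Arnt, became 1 with TPM and 1 with library weights, from 0, and 0 when single libraries were left out. Without the filter, limma also called Arnt2 (adjusted p = 0.023), which is not in that count. Target genes called became 0 with Xist, 1 with median-ratio scaling and 1 without the filter, from 3, and 2 to 3 without single libraries. The log2 FC of Ahr turned to −0.040 with length and GC trends removed, −0.039 with median-ratio scaling and −0.030 with upper-quartile scaling, and the cause was not tested.

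Samples of the same replicate number did not deviate together (r from −0.316 to 0.192), so the numbers were not taken to pair the mice. With the replicate block, Cyp1a1 had a log2 FC of 1.74 (limma adjusted p = 5.03e-05) and 3426 genes were called, with 3 target genes among them. NRF2 target genes called were 7 after median-ratio scaling, from 11, and 3 with Xist, where 2994 and 1983 of all tested genes were called. The genes below the minimum were not run with the block, library weights, Xist or trend removal, which need the model across genes. All listed alternatives were run for the tested genes. Whether a gene near 0 FPKM is expressed cannot be decided at these depths.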

Other observations

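The genes most like each member after removal of group means differed from member to member, and these correlations over 10 libraries are descriptions that share library and depth. For Ahr they were Ptk2 (r = 0.97, rho = 0.93), the focal adhesion kinase, Dstyk (0.97, 0.95) and Serpini1 (0.97, 0.93). For Arnt they were C1qtnf1 (r = 0.99, rho = 0.99), Atp8b2 (0.98, 0.99) and Mcc (0.98, 0.99). For Cyp1b1, Pla2g4a, a cytosolic phospholipase (0.92, 0.90), and Atp6v0a4 (0.92, 0.78) followed Dcn. For Tiparp they were Pex13 (0.92, 0.92), Cse1l (0.92, 0.90) and Gm6877 (0.91, 0.89), and for Nqo1 they were Rpl17-ps3 (0.97, 0.92), Atp6v1e1 (0.97, 0.96) and S100a6 (0.97, 0.95). For Cyp1a1 they were Gm6750, Zcchc4 and Cpsf4, whose r of 0.95, 0.93 and 0.93 became 0.35, 0.49 and 0.19 without both replicate 4 libraries, so that likeness rests on them.

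Ereg, a growth factor gene of the AHR battery list that was named after its values were seen, was listed at 0 in all 5 sham libraries. It read 0.187 to 0.762 FPKM in nAAC. Among the 17442 genes with a mean between 0 and 1 FPKM, 4.48% had fully separate groups with nAAC higher.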
